A study of Homo sapiens with 6 samples.

Results

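Cytosolic ribosomal protein genes encode the protein part of the ribosome that translates nuclear mRNAs. They were selected by symbol: a probe set entered when its only annotated gene symbol was RPL or RPS followed by a number, with or without a final A, X or L, or was RPLP0, RPLP1, RPLP2 or RPSA, and each gene was represented by its brightest probe set, averaged over the 6 arrays. This gave 61 of the 18417 genes measured, 39 with an RPL symbol (large subunit) and 22 with an RPS symbol (small subunit). The cells were RPMI 8226, an established line grown from human multiple myeloma, a cancer of plasma cells. The 2 groups were cells given 6 Gy of carbon ions, a dense form of particle radiation, and unirradiated cells given 0 Gy. All came from the same line in serum-supplemented medium, and RNA was taken 1 day after exposure. Each group had 3 biotin-labelled arrays, and the labels do not say whether the 3 samples of a dose were separate cultures, so each p-value rests on the spread among these samples alone, and that spread may be technical. In such bulk RNA, fewer cells making a transcript and less of it per cell cannot be told apart.

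The small ribosomal subunit reads the mRNA, and the large subunit joins amino acids and passes the growing chain through an exit tunnel. Nearly all ribosomal proteins are present once in each ribosome, so their mRNAs are abundant in dividing and secreting cells and are made in balanced amounts. In vertebrates most of these mRNAs begin with a terminal oligopyrimidine (TOP) tract, through which growth signalling by mTORC1 sets how strongly they are translated. Plasma cells secrete antibody and depend on a large translation capacity.

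Median log2 intensity lay between 5.66 and 5.72 on the irradiated arrays and between 5.64 and 5.67 on the unirradiated arrays, and the number of arrays limits the precision. Of 9 plasma cell and myeloma markers, 8 stood above the array median on every array; the exception was SLAMF7, at 5.05 to 5.26 on irradiated and 4.53 to 4.75 on unirradiated arrays. Of 8 measured markers of T cells, monocytes and red cells, 0 did so, and of 3 fibroblast markers only COL1A1 did, at 6.64 to 6.73 on irradiated and 6.45 to 6.47 on unirradiated arrays. Of all these markers, SLAMF7 and COL1A1 rose by 0.55 and 0.23 (limma adjusted p 0.00271 and 0.0399), while the plasma cell markers CD38 and XBP1 had log2 differences of -0.42 and -0.23 and fell (0.0127 and 0.0405). Their part in the results was not tested. Since the table holds no detection calls, whether a dim gene exceeds background is unknown.

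Of 79 proteins usually counted to the human ribosome, 57 had a member gene, 36 of 47 in the large and 21 of 32 in the small subunit. The other 4 members, RPL3L, RPL10L, RPL39L and RPS27L, encode close copies (paralogs) of ribosomal proteins. Of the 22 proteins with no member, 11 were on probe sets annotated to several genes, mostly pseudogenes of the same protein: RPL6, RPL9, RPL13A, RPL21, RPL36A, RPL37, RPL39, RPS10, RPS12, RPS18 and RPS26. FAU, encoding a ribosomal protein fused to a ubiquitin-like protein, had its own probe set but falls outside the symbol rule. A further 10 were not analysed here.

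Ribosomal protein mRNAs differed little between irradiated and unirradiated myeloma cells 1 day after exposure. Of 61 genes, 2 fell, RPS24 and RPS21, and 0 rose at a limma adjusted p under 0.05. That is 3.28% of the members, where 14.5% of all 18417 genes tested passed, 8.18% lower and 6.35% higher in irradiated cells. At an unadjusted p under 0.05, 9 of the 61 passed, or 14.8%, against 29.8% of all genes. At a stricter adjusted p under 0.01 none of the 61 passed, against 5.85% of all genes. The median log2 difference, irradiated minus unirradiated, was -0.03 over the members and 0.04 over all genes tested. The members ran from -0.39 for RPS24 to 0.25 for RPL39L, and 39 of the 61 values were negative (63.9%, against 40.2% over all genes).

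The intervals bound how large a change these arrays leave room for. The 95% interval of the difference lay within a 1.25-fold change in either direction for 46 of the 61 members (75.4%) and for 54.0% of all genes. It lay within a 1.5-fold change for 58 members, and the other 3 were RPL22, RPS24 and RPS27L. The 3 irradiated and the 3 unirradiated values did not overlap for 14 members, or 23.0%, against 34.7% of all genes. Of those 14, 10 were lower in irradiated cells (15.7% of all genes were) and 4 were higher (19.0% of all genes were). The median size of a member's difference was 0.07 on the log2 scale, about its median standard error of 0.07 (SE, 3 arrays a group).

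**Figure D1:**
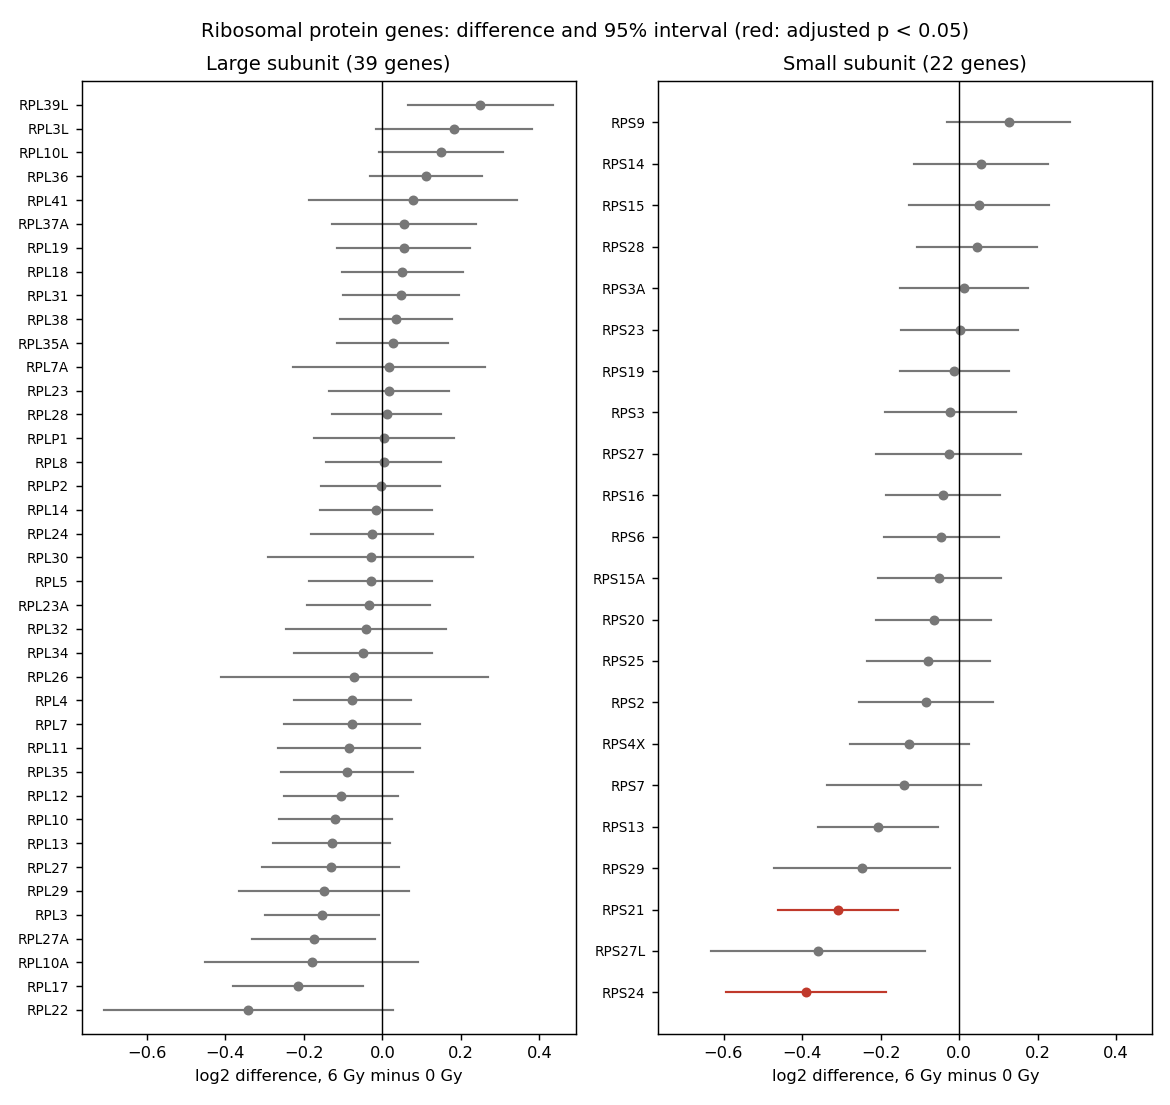
Log2 difference (6 Gy minus 0 Gy, x axis) of each ribosomal protein gene, large subunit on the left and small subunit on the right, with its 95% interval as a bar (3 arrays a group). Only RPS24 (-0.39) and RPS21 (-0.31), drawn in red, passed the adjusted p of 0.05, and most intervals include 0.

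RPS24 encodes a small-subunit protein needed to mature the small subunit's RNA, and its loss-of-function alleles cause Diamond-Blackfan anaemia. Its log2 intensity was 9.80, 9.96 and 9.72 on the 3 irradiated arrays and 10.06, 10.26 and 10.32 on the 3 unirradiated arrays. Every irradiated value lay below every unirradiated one. The means were 9.83 ± 0.12 in irradiated and 10.22 ± 0.14 in unirradiated cells (SD, n = 3 each), a log2 difference of -0.39 ± 0.09 (SE) or 1.31-fold lower (limma adjusted p 0.0198). The call ended when irradiated replicate 1 or 3 or unirradiated replicate 2 or 3 was left out, with adjusted p up to 0.0731 and a difference from -0.47 to -0.34 over the 6 such fits.

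RPS21, encoding another small-subunit protein, had 8.61, 8.74 and 8.60 in irradiated cells, against 8.97, 8.95 and 8.96 in unirradiated cells. The unirradiated values were nearly equal, and the highest irradiated value was below all of them. The log2 difference was -0.31 ± 0.07 (SE), or 1.24-fold lower (limma adjusted p 0.0155). Leaving out irradiated replicate 1 or unirradiated replicate 1 or 2 moved the adjusted p to between 0.0507 and 0.0577, and the difference ran from -0.35 to -0.28.

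Among the other small-subunit genes, RPS13, which encodes a conserved RNA-binding protein of the subunit's body, had the smallest p. Its values were 12.77, 12.76 and 12.86 in irradiated cells and 13.06, 12.96 and 12.98 in unirradiated cells. The groups did not overlap, but the difference of -0.21 ± 0.07 (SE) did not pass (limma adjusted p 0.073; it passed with the dimmest genes left out, with array medians subtracted, with array weights and with an intensity trend). RPS29 differed by -0.25 ± 0.10 (SE, adjusted p 0.130 in limma) with overlapping groups, and passed at -0.36 when irradiated replicate 2 was left out (0.025). RPS29 averaged 6.36 over the 6 arrays, below the median gene at 6.44, so whether it was above background is unknown. RPS4X, encoding a small-subunit RNA-binding protein, stood at 11.94, 11.97 and 12.02 in irradiated and 12.15, 12.12 and 12.04 in unirradiated cells. Its groups were just apart, with a difference of -0.13 (limma adjusted p 0.241). On the higher side RPS9, whose protein lies near the entry of the mRNA channel, had the smallest p. It stood at 11.52, 11.64 and 11.50 in irradiated cells and 11.47, 11.38 and 11.43 in unirradiated cells, a difference of 0.13 (limma adjusted p 0.260). RPS14, whose single-copy loss underlies the anaemia of the 5q deletion syndrome, RPS15 and RPS28 differed by 0.06, 0.05 and 0.05. For RPS14 and RPS15 even the sign was not settled, since each turned slightly negative with 1 array left out.

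Of 39 large-subunit genes, 0 passed in limma, against 14.5% of all genes. An unadjusted limma p under 0.05 was seen for 4 (10.3%, against 29.8% of all genes). These were RPL39L, which was higher and is described with the paralogs, and RPL17, RPL27A and RPL3, which were lower. RPL17, which lines the exit tunnel, had 7.83, 7.91 and 7.95 in irradiated cells and 8.06, 8.06 and 8.22 in unirradiated cells. These groups did not overlap, with a difference of -0.21 ± 0.07 (SE, adjusted p 0.0835 in limma). RPL3, whose protein reaches close to the centre where peptide bonds form, stood at 12.62, 12.64 and 12.71 in irradiated and 12.83, 12.81 and 12.79 in unirradiated cells, a difference of -0.15 (limma adjusted p 0.145). RPL27A, at the same centre's periphery, had 10.75, 10.84 and 10.68 in irradiated and 10.92, 10.90 and 10.96 in unirradiated cells, a difference of -0.17 (limma adjusted p 0.127). RPL22, an RNA-binding protein of the large subunit's surface, had a wide spread: 6.53, 6.03 and 6.02 in irradiated and 6.86, 6.29 and 6.46 in unirradiated cells. Its difference of -0.34 ± 0.16 (SE) did not pass (limma adjusted p 0.199), but it did once sample numbers were entered as a replicate block (0.0313). With 1 array left out it ran from -0.51 (without irradiated replicate 1) to -0.18 (without unirradiated replicate 1), with adjusted p up to 0.503 in limma. RPL22 averaged 6.37 over the 6 arrays, below the median gene at 6.44, so whether it was above background is unknown. RPL36 had the largest positive difference among the large-subunit proteins other than paralogs, 0.11 (limma adjusted p 0.279).

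A further 3 large-subunit genes had every irradiated value below every unirradiated value without passing. With these, 6 of the 39 large-subunit genes were lower without overlap, and 15.7% of all genes were. RPL10, whose protein joins the large subunit at the end of its assembly and is mutated in some T-cell leukaemias, stood at 12.63, 12.57 and 12.56 in irradiated and 12.68, 12.72 and 12.72 in unirradiated cells, a difference of -0.12 (limma adjusted p 0.246). RPL13, an rRNA-binding protein of the large subunit, had 9.21, 9.31 and 9.23 in irradiated and 9.35, 9.36 and 9.42 in unirradiated cells, a difference of -0.13. RPL12 had 11.90, 11.97 and 11.88 in irradiated and 11.99, 12.03 and 12.04 in unirradiated cells, a difference of -0.11. These values are of the brightest probe set. Over all probe sets the difference ran from -0.13 to 0.03 for RPL13 and from -0.13 to 0.0064 for RPL12, so the sign was not the same on each. At the other end, RPL28 was among the most even members, with a difference of 0.01 and an interval from -0.13 to 0.15.

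**Figure D2:**
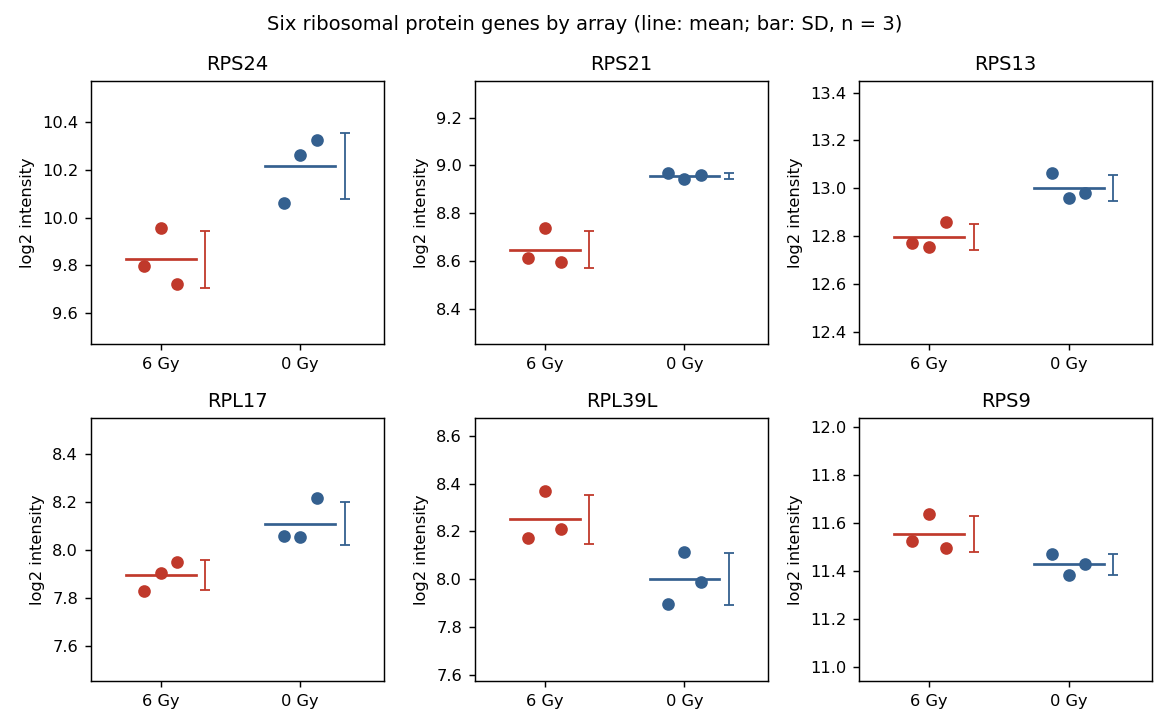
Log2 intensity on each array (points), group mean (line) and SD (bar, n = 3) of 6 ribosomal protein genes in cells given 6 Gy (left, red) and 0 Gy (right, blue), every panel spanning the same range of log2 units. The groups do not overlap in any of these 6, which is so for 23.0% of members and 34.7% of all genes. Irradiated values are lower for RPS24, RPS21, RPS13 and RPL17 and higher for RPL39L and RPS9. Only RPS24 and RPS21 passed the adjusted p of 0.05.

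Set side by side, the subunits gave similar values. The median difference was -0.03 over the 39 large-subunit and -0.05 over the 22 small-subunit genes, with lower and upper quartiles of -0.10 and 0.03 for the large and -0.14 and -0.0023 for the small subunit. Negative values made up 23 of 39 large-subunit and 16 of 22 small-subunit genes. Groups did not overlap for 9 large-subunit genes (23.1%) and 5 small-subunit genes (22.7%), against 34.7% of all genes. Genes that passed numbered 0 in the large and 2 in the small subunit (9.09%), against 14.5% of all genes. The medians of the subunits differed by 0.02, and this gap was between 0.01 and 0.04 with an array left out. Without the 4 paralogs the medians were -0.03 for the large and -0.05 for the small subunit.

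The members' medians on single arrays spread wider than their median difference between doses. Taking each gene's deviation from its own mean over the 6 arrays, the median over the 61 members was -0.01, 0.04 and -0.07 on irradiated arrays 1 to 3 and 0.03, -0.01 and 0.04 on unirradiated arrays 1 to 3. The groups overlapped in this measure, for the large subunit and for the small subunit alike. Irradiated array 3 held the lowest of the 6 values for 32 of the 61 genes, and irradiated array 2 held the highest for 18, as did unirradiated array 3. RPL10A shows the pattern, with 11.23, 11.23 and 10.77 in irradiated and 11.16, 11.31 and 11.31 in unirradiated cells. RPL26, with 9.76, 9.91 and 9.25 in irradiated and 9.82, 9.54 and 9.78 in unirradiated cells, shows it too. Over all genes tested, the same median was 0.04 on irradiated array 3 and -0.04 on unirradiated array 3, opposite in sign to the members on both. With 1 array left out the members' median difference ran from -0.07 (without irradiated array 2) to -0.01 (without irradiated array 3), against -0.03 over all 6, and it was -0.06 without unirradiated array 2. That of the large subunit ran from -0.07 to 0.01 on leaving out the same 2 irradiated arrays. In a limma fit with array weights, irradiated array 3 had the lowest weight, 0.60, and the others had 0.86 to 1.42. The members' median difference was -0.0257 in that fit and -0.0349 without weights. The part of array quality in these values was not tested.

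**Figure D3:**
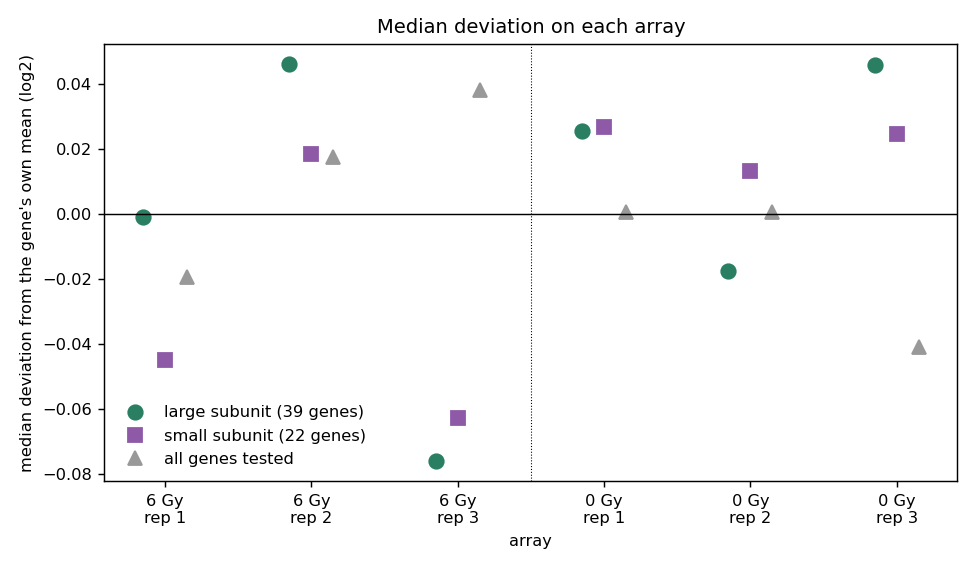
Median deviation from each gene's own mean over 6 arrays (y axis, log2 units) on each array (x axis, 6 Gy left of 0 Gy) for large-subunit genes (circles), small-subunit genes (squares) and all genes tested (triangles). Both subunits are lowest on irradiated array 3 (-0.08 and -0.06), and the members' medians on the 2 groups of arrays overlap.

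Genes were also grouped by role. RPL5 and RPL11 carry the smallest ribosomal RNA into the large subunit and can bind the p53 regulator MDM2 when ribosome assembly is disturbed. They differed by -0.03 (95% interval -0.19 to 0.13) and -0.09 (-0.27 to 0.09). The 3 probe sets of RPL5 ran from -0.19 to -0.03, and the interval is that of the brightest. The stalk, which recruits elongation factors, had 3 measured proteins: RPLP1 at 0.0047 (-0.17 to 0.18), RPLP2 at -0.0045 (-0.16 to 0.15) and RPL12 at -0.11 (-0.25 to 0.04). Of 15 measured genes mutated in Diamond-Blackfan anaemia, a congenital failure of red cell production, RPS24 passed, at -0.39, and the others did not. That is 6.67% of these genes, where 14.5% of all genes passed. The other 14 ran from -0.25 for RPS29 to 0.05 for RPL18, with a median of -0.04. RPS19, the gene most often mutated in that disease, stood at 11.89 ± 0.01 in irradiated and 11.91 ± 0.01 in unirradiated cells (SD, n = 3 each), a difference of -0.01 with an interval from -0.15 to 0.13. RPS6, the phosphorylated target of S6 kinase, differed by -0.05. FAU differed by 0.16 (limma adjusted p 0.25).

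The paralog genes held the largest positive values. RPL39L, which replaces RPL39 in the exit tunnel in testis and in some cancer cells, stood at 8.17, 8.37 and 8.21 in irradiated and 7.90, 8.11 and 7.99 in unirradiated cells. The groups did not overlap, and the difference of 0.25 ± 0.08 (SE, 1.19-fold) missed the threshold with a limma adjusted p of 0.074. It passed with quantile normalization (0.0233), with cyclic loess normalization (0.0439), with an intensity trend (0.0435) and with the dimmest genes left out (0.0448). RPL3L, a muscle form of RPL3, differed by 0.18, and RPL10L, a testis form of RPL10, by 0.15. Their means over the 6 arrays, 6.10 and 5.44, lay below the median gene at 6.44, so whether they were above background is unknown. RPS27L, a paralog of RPS27 known as a p53 target, went the other way, with 6.08, 6.41 and 6.30 in irradiated and 6.62, 6.39 and 6.86 in unirradiated cells. Its groups overlapped and its difference was -0.36 ± 0.12 (SE, adjusted p 0.0802 in limma), while RPS27 itself differed by -0.03. Without unirradiated replicate 2 the RPS27L adjusted p was 0.0387. Of 4 paralogs outside the symbol rule, RPL26L1 differed by 0.23, RPL36AL by 0.12, RPL7L1 by -0.16 and RPL22L1 by -0.27. Among these 4, 0 passed in limma (adjusted p from 0.104 to 0.248). RPL22L1, RPL26L1 and RPL7L1 had an unadjusted limma p under 0.05, as did 29.8% of all genes.

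Most members were among the brightest probe sets on the arrays. The mean log2 intensity was 11 or more for 40 of the 61 members, and 42 had a mean in the top 5% of all genes. On each array between 17 and 20 members exceeded the array's own 99th percentile. The 40 bright members had a median size of difference of 0.05, and the 11 members with a mean under 9 had one of 0.21. Both called genes, RPS24 and RPS21, lay outside the bright 40. Over the 61 genes, level and size of difference correlated at r = -0.57 (Pearson) and -0.43 (Spearman), as a description of points that share the same 6 arrays. A bright probe set close to its ceiling would show a compressed difference. The brightest member mean was 13.31, for RPS25, and the brightest value of any probe set was 14.02. The part of such compression was not tested.

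**Figure D4:**
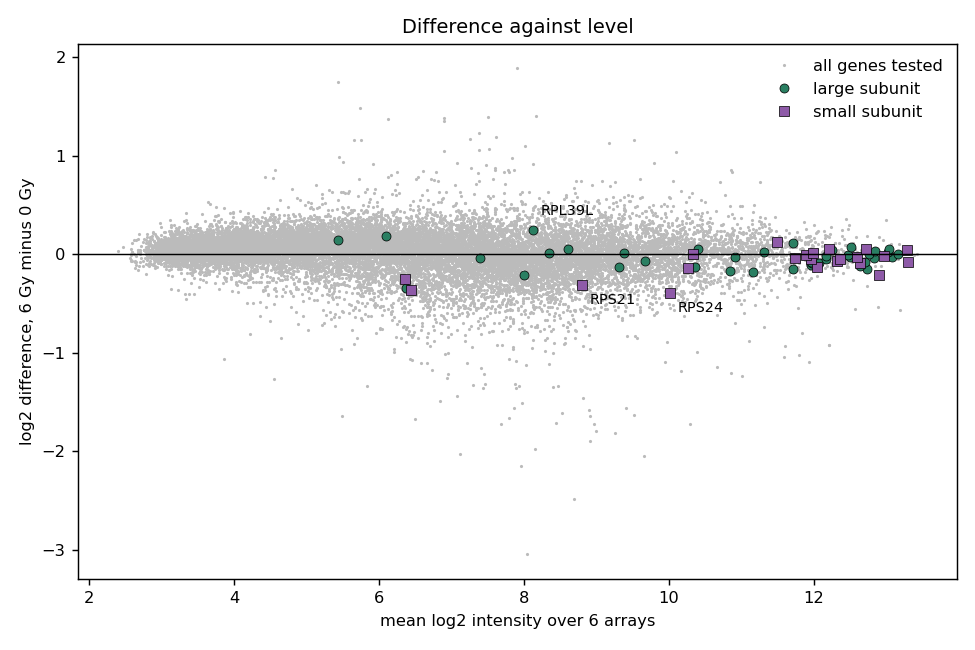
Log2 difference (6 Gy minus 0 Gy, y axis) against mean log2 intensity over the 6 arrays (x axis) for all 18417 genes tested (grey), large-subunit genes (circles) and small-subunit genes (squares). Most ribosomal protein genes lie to the right, at a mean of 11 or more, and close to 0. RPS21 and RPS24 have lower differences, at means of 8.80 and 10.02.

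Several probe sets of 1 gene gave a check on single values. Of the 61 members, 21 had more than 1 single-gene probe set. The lowest and highest difference of a gene's probe sets lay a median of 0.08 apart, and their signs differed for 11 of the 21 genes. The widest gap was that of RPL27A, with -0.17 on the probe set used and 0.15 and 0.12 on the others. The mean of all 3 was 0.03. RPS28 agreed best, with 0.05 on all 3 of its probe sets. RPS24, RPS21, RPS13, RPL17 and RPL39L had 1 probe set each, so they lack this check. The 30 probe sets that list 1 of the 11 unmeasured proteins together with other genes ran from -0.27 to 0.21 with a median of -0.02. In a limma fit over all 33297 deposited probe sets, 0 of these 30 passed, against 6.28% of all. Ribosomal proteins have many processed pseudogenes of near-identical sequence, so a probe set may also read their transcripts. Of 24 pseudogenes with a probe set of their own, 1 was lower (4.17%, against 8.18% of all genes), and their median difference was 0.03.

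The TOP tract is the sequence that marks these mRNAs. RefSeq windows of the GRCh38.p14 build, from 250 bases before to 50 after each annotated start, were given for 50 of the 61 members. A tract was scored on the gene's own strand as a C at the start base followed without a break by at least 4 further C or T bases. At least 1 annotated start held it in 36 of 50 members (72.0%), against 5.14% of 27305 genes. With the C allowed up to 5 bases to either side the numbers were 86.0% and 25.2%. The windows below run from 10 bases before to 20 bases from the start for the members with the smallest p in each subunit and direction that have a window, apart from RPS14, RPS15 and RPS28, whose differences were 0.06 or less; capitals mark the tract, and a sequence with no capitals did not meet the rule.
RPS24 (fell; chr10:78033853-78033882, plus strand): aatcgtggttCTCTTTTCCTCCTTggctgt
RPS21 (fell; chr20:62387093-62387122, plus strand): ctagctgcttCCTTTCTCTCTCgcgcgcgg
RPS13 (-0.21; chr11:17077648-17077677, minus strand): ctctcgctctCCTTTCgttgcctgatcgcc
RPS9 (0.13; chr19:54200848-54200877, plus strand): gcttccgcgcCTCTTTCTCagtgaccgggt
RPL36 (0.11; chr19:5690285-5690314, plus strand): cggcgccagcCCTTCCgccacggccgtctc
RPL17 (-0.21; chr18:49492446-49492475, minus strand): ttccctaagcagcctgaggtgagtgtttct
RPL27A (-0.17; chr11:8682782-8682811, plus strand): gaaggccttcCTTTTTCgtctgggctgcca
RPL22 (-0.34; chr1:6199576-6199605, minus strand): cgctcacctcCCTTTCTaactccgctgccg
RPL3 (-0.15; chr22:39319604-39319633, minus strand): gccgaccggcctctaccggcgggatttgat
RPS27L (-0.36; chr15:63157458-63157487, minus strand): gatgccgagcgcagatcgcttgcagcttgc
RPL10L (0.15; chr14:46651762-46651791, minus strand): gtagttaagagagcgcattttgacttcgag

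The tract stood at the start of both genes that fell, with 14 pyrimidines in RPS24 and 12 in RPS21, and also at the start of RPS13, RPL27A and RPL22, with negative differences, and of RPS9 and RPL36, with positive ones. The paralogs RPS27L and RPL10L did not meet the rule, and neither did RPL17 or RPL3, the last with a run that ends after 4 bases. Members with the tract had a median difference of -0.02 and the 14 without it -0.13. By subunit, 23 of 31 large-subunit and 13 of 19 small-subunit genes with a window held it. Among promoter motifs searched on both strands of the 300-base windows, none of which contains another, the core CCGGAAG bound by GABP was in 38.0% of members and 12.2% of all genes. The core TCGCGA, bound by ZBED1, was in 28.0% of members and 3.76% of all genes. The SP1 box GGGCGG was in 64.0% and 48.3%, AAGATGG of YY1 in 12% and 7.11%, and the TATA box TATAAA in 10% and 14%. A match is a description of the letters and not a bound site.

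Of 7 measured genes for transcription factors that bind ribosomal protein promoters or raise ribosome production, 4 fell and 0 rose, where 8.18% of all genes were lower and 6.35% higher; the list was chosen with results of these arrays known. SP1, a general activator of GC-rich promoters, fell by 0.38 ± 0.07 (SE, adjusted p 0.00781 in limma), and MYC, the growth regulator that raises ribosome production, fell by 0.33 ± 0.06 (SE, 0.00918). GABPA, the DNA-binding subunit of GABP, had a log2 difference of -0.36, and its partner GABPB1 one of -0.23 (limma adjusted p 0.0191 and 0.049). MYC and SP1 passed with any 1 array left out, GABPA lost its call without any of the unirradiated arrays (up to 0.0671), and GABPB1 lost it without any array (up to 0.140). MAX, YY1 and TBP did not pass, with differences of 0.13, 0.04 and -0.02.

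Among 17 genes of mTORC1 and of TOP mRNA translation, 1 fell and 0 rose (14.5% of all genes passed in either direction). EIF4EBP1, which encodes an mTORC1-controlled inhibitor of cap-dependent translation, fell by 0.38 ± 0.07 (SE, adjusted p 0.00818 in limma), and kept that call with any 1 array left out. The poly(A)-binding protein partner LARP4 differed by 0.25 and the RNA-binding protein CNBP by -0.29, and neither passed (limma adjusted p 0.0532 and 0.0613). LARP1, which binds the TOP tract, differed by -0.09 (adjusted p 0.484 in limma). Of 19 measured genes with TOP mRNAs that encode no ribosomal protein, 1 fell and 1 rose, against the same 14.5% of all genes, and the median was -0.02. HNRNPA1, a splicing factor, fell by 0.59 (limma adjusted p 0.00374); its group means of 5.28 in irradiated and 5.88 in unirradiated cells were dim, so whether it was above background is unknown. VIM, an intermediate filament protein, rose by 0.24 (0.0415), a call that ended without any 1 of the 6 arrays. EIF4B, a translation initiation factor, differed by -0.16 without passing (limma adjusted p 0.135), and its irradiated values all lay below the unirradiated ones. The elongation factor genes EEF1A1 and EEF2 differed by 0.01 and -0.04. Mitochondrial ribosomal protein genes, 74 in number, had 2 higher and 2 lower (6.35% and 8.18% of all genes) and a median of 0.02. They were MRPL50 (0.29), MRPS30 (0.26), MRPL27 (-0.30) and MRPL58 (-0.31), each with its call lost on leaving out some arrays (limma adjusted p up to 0.124).

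Many ribosomal protein genes carry small nucleolar RNAs (snoRNAs) in their introns; these are cut from the same primary transcript and guide chemical modification of ribosomal RNA. By RefSeq coordinates 41 snoRNA genes lie inside 20 of the members (strand was not given for them), and 18, in 12 hosts, had a probe set of their own. Of the 18, 4 fell and 0 rose (8.18% of all genes were lower and 6.35% higher), 15 values were negative, and the median difference was -0.25. Their 12 host mRNAs had 0 calls in limma and a median of -0.05, and 14 of the 18 snoRNAs had a lower difference than their host. Over all 192 snoRNA genes measured, 31 were lower and 1 higher, with a median of -0.09.

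SNORD15B, inside RPS3, stood at 8.56, 8.59 and 8.26 in irradiated and 9.45, 9.19 and 8.98 in unirradiated cells. The groups did not overlap, and it fell by 0.73 ± 0.13 (SE) on the log2 scale, or 1.66-fold (limma adjusted p 0.00465), while its host RPS3 differed by -0.02 ± 0.07 (SE). SNORD83B, inside RPL3, stood at 7.96, 7.97 and 7.82 in irradiated and 8.36, 8.44 and 8.26 in unirradiated cells and fell by 0.44 ± 0.08 (SE, adjusted p 0.00541 in limma), and its host differed by -0.15. Both kept their calls with any 1 array left out. SNORA65 in RPL12 had a difference of -0.55 and SNORD4A in RPL23A one of -0.53 (limma adjusted p 0.0343 and 0.0402). SNORA65 passed only without irradiated replicate 2 or 3 among these fits, and SNORD4A only without irradiated replicate 1 (adjusted p up to 0.0983 and 0.124). Without irradiated replicate 3 the differences were -0.35 for each. For the other 4 of the 18 the snoRNA's difference lay above its host's, and none of them passed. SNORA3A and SNORA3B differed by 0.11 and -0.06 with their host RPL27A at -0.17, and SNORD58A by 0.04 with RPL17 at -0.21. On its other probe sets RPL27A differed by 0.15 and 0.12, above both SNORA3A and SNORA3B. For these snoRNAs the order therefore depends on the probe set used. SNORD4B, which shares its host RPL23A (-0.03) with SNORD4A, differed by 0.08. Levels of a snoRNA and of its host come from different probe sets and are not set against each other.

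**Figure D5:**
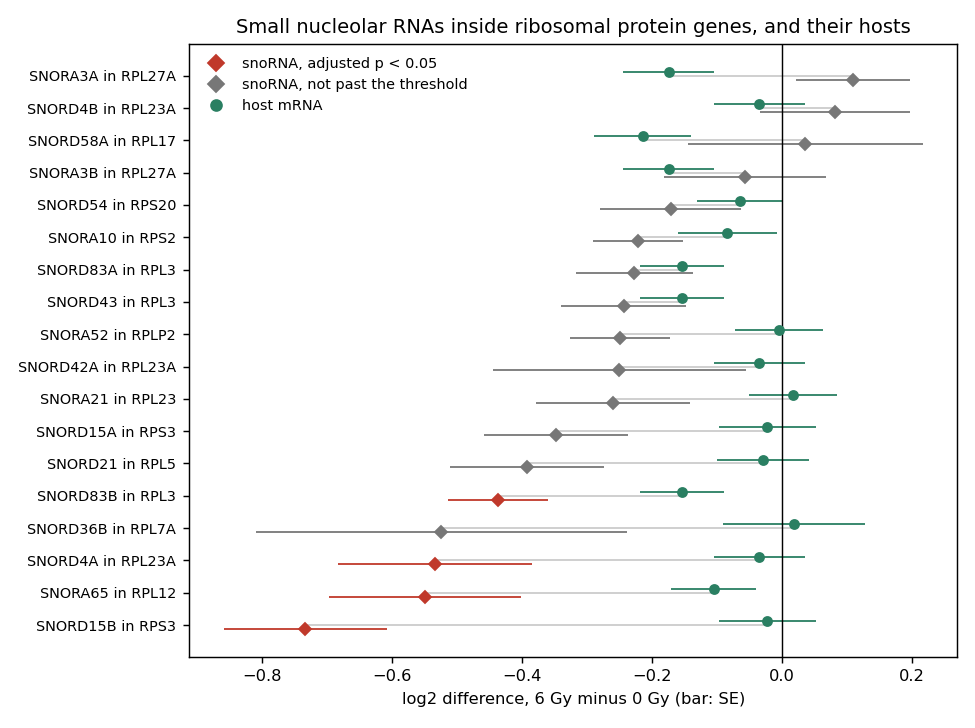
Log2 difference (6 Gy minus 0 Gy, x axis; bars are SE, 3 arrays a group) of 18 small nucleolar RNAs (diamonds, red where the adjusted p is under 0.05) and of the ribosomal protein gene around each (circles). Hosts lie between -0.21 and 0.02, and the snoRNAs between -0.73 and 0.11, with 14 of 18 to the left of their host.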

How the data were processed

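Per the labels, Trizol was used for extraction, and biotin marked the RNA. The deposited table of 33297 probe sets was read as log2 intensities; their range was taken to show the log base, while the normalization is not given in the sources used here, nor is background correction. Per the platform annotation, 19460 probe sets list 1 gene, 1754 several and 12083 none; the first gave 18417 genes. Irradiated and unirradiated arrays were compared with limma 3.58.1 (lmFit, eBayes; R 4.3.3), two-sided, unfiltered, with Benjamini-Hochberg adjustment over all genes and a threshold of 0.05. "Rose" and "fell" are used of genes that passed. An exact permutation test of 3 arrays against 3 cannot give a p under 0.1, so none was run. The fit was tested on simulated data with 50 genes changed at each size. It recovered 6% of log2 changes of 0.25, 58% of those of 0.5 and 96% of those of 1. Fewer genes were changed there than passed here, which makes the adjustment stricter. The members and lists were chosen with earlier results of these data known, and no list was tested. Genes were named when called or among the 4 smallest p of a subunit and direction, plus members of role lists. Related lists name the called genes or the 3 smallest p. The promoter factors, FAU and the paralogs outside the symbol rule were all named. RPL10, RPL10A, RPL12, RPL13, RPL26, RPL28, RPS4X, RPS6, RPS25, RPS27, LARP1, EEF1A1, EEF2 and single snoRNAs were picked after their values were seen. Promoter windows and gene coordinates are from RefSeq, GRCh38.p14; all 61 members matched by Entrez ID. Tables and figures used Python 3.11.15, pandas 2.3.3 and matplotlib 3.10.9.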

Additional observations from a re-analysis of the deposited data

How the results depend on the processing

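Among 16 named ribosomal protein genes, 200 of 224 values under 14 alternatives kept their direction and their side of the threshold. Of the rest, 7 lost the call, 14 gained one and 3 turned sign. The lost calls were all of RPS24 and RPS21, the only named members called in the main fit. For the other genes, keeping their side meant staying uncalled. The replicate block, the intensity trend and leaving out the dimmest genes cannot change a difference, only its p. Nor can averaging probe sets for a gene with 1 probe set. RPL27A was 0.0308 as the mean of all its probe sets, RPS14 ran from -0.0044 (without unirradiated replicate 3) to 0.109 with an array left out, and RPS15 from -0.0163 (without irradiated replicate 2) to 0.108. Leaving out 1 array at a time gave 0 to 3 members lower and 0 higher, 0 to 3 small-subunit and 0 large-subunit genes changed. The same fits gave 1471 to 2184 genes changed in all (619 to 887 higher, 852 to 1324 lower). They gave 2 to 5 intronic snoRNAs lower, 1 changed non-ribosomal TOP gene, 1 to 2 TOP regulators, 2 to 3 promoter factors and 0 to 6 mitochondrial ribosomal protein genes. These smaller fits hold 5 arrays. The median of the large subunit was 0.0085 without irradiated replicate 3.

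At an adjusted p under 0.01, 1077 genes changed (384 higher, 693 lower), with 0 members lower, 0 small-subunit genes, 2 intronic snoRNAs, 1 non-ribosomal TOP gene, 2 promoter factors and 0 mitochondrial ribosomal protein genes. Leaving out the dimmest genes gave 4 members lower and 1 higher, 2 of them in the large subunit, with 8 intronic snoRNAs, 5 TOP regulators and 8 mitochondrial genes. That alternative tests fewer genes. Subtracting array medians gave 4 members lower, 1 of them large-subunit, 8 snoRNAs, 1 non-ribosomal TOP gene and 2 TOP regulators. Quantile and cyclic loess normalization each gave 1 member higher, the large-subunit paralog RPL39L, with 2 TOP regulators under the first and 3 under cyclic loess. An intensity trend with a robust prior gave 5 members lower and 1 higher, 3 in the large subunit, 8 snoRNAs, 4 non-ribosomal TOP genes, 4 TOP regulators and 12 mitochondrial genes. Array weights gave 2 TOP regulators and 7 mitochondrial genes. For the normalizations, the trend and the weights the cause was not tested. The alternatives for snoRNAs and related lists, and leaving out the paralogs, were chosen after seeing the data.

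Sample numbers are shared between doses, but same-numbered arrays deviated together with correlations of only -0.04, 0.10 and -0.11. Of 6 samples, 2 correlated best with their own number. With 3 arrays a group this check cannot decide whether the numbers pair the samples. With the number as a replicate block 765 genes were higher, 3 members lower (RPS24, RPS21 and RPL22), 1 large-subunit gene, 1 non-ribosomal TOP gene and 1 mitochondrial gene changed.

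With 3 arrays a group and a median standard error of 0.07, small shifts of single members were not detectable. Most members are bright, and the response of bright probe sets is unknown, as are detection limits for dim members.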
